A study of Danio rerio with 8 samples.

Results

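The lens crystallins, the water-soluble proteins that fill the fibre cells of the vertebrate lens, were followed in RNA from zebrafish eyes. Members were the genes on chromosomes 1 to 25 named *cryaa*, *cryaba* or *cryabb*, or with a name that begins with cryba, crybb, crybg, crygm, crygn or crygs. The circadian cryptochrome genes, which share the letters cry, were left out. These names matched 57 of the 37114 gene rows of the table. The names *crygm2d8* and *crygm2d9* each occurred in 2 rows, of which the one with the higher mean was kept. This left 55 genes: 3 alpha, 7 beta A, 6 beta B, 1 *crybgx*, 32 gamma M, 2 gamma N and 4 gamma S genes. The dropped rows have gene IDs and positions of their own on chromosome 9, so they were not duplicates of the kept ones. The dropped *crygm2d8* row ran from 47.5 FPKM in the library 1_19 labelled *flrt2*-KO to 128.6 FPKM in WT 12_16.

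Alpha crystallins belong to the small heat shock protein family and keep other lens proteins in solution. Beta and gamma crystallins share a common fold and are packed at high concentration, which gives the lens its refractive power. Fish lenses are rich in gamma M crystallins, a methionine-rich gamma class of aquatic vertebrates, and in the zebrafish genome most of these genes lie in a tandem array. Lens fibre cells make crystallins in large amounts as they differentiate, and in zebrafish the lens is already separate from the surface by the second day of development.

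The study compared eyes of WT embryos of the AB strain with eyes of a mutant line made with CRISPR/Cas9. The line was bred in the AB background and carries a 20 bp deletion in *flrt2*, a gene for a leucine-rich transmembrane adhesion protein. The sequenced mutant embryos are called *flrt2*-KO, with no zygosity stated beside the RNA sequencing. Both groups were taken at 36 hpf and held 4 libraries each, and about 40 eyes were pooled per library. The titles name the WT libraries 12_16, 1_19, 1_8 and 1_8_ysy and the others 12_16, 1_19, 1_8_ysy and 2_17. Nothing in the sources used here says that the pools came from separate crosses, so p-values measure the spread between these pools. The labels call the tissue retina, while the methods describe whole eyes.

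The libraries held between 13423932 and 14835885 reads assigned to genes. FPKM, the unit of all levels below, counts fragments scaled to gene length and to library size. The library size behind the FPKM was not the count of assigned reads. It was 1.072 times that count in WT 12_16 and 0.93 times in the library 2_17 labelled *flrt2*-KO. How this size was set is not stated in the sources used here. *flrt2* itself was not lower in the mutant group: it ranged from 2.25 to 2.55 FPKM in WT and from 2.80 to 3.99 FPKM in the others (adjusted p from limma = 0.11). A deletion of this size need not lower the RNA of its gene. Why *flrt2* was not lower was not tested, and the labels could not be checked from it. The mutant group is named by its label, as libraries labelled *flrt2*-KO. At an adjusted p under 0.05 from limma, 8.28% of the 21012 genes tested rose and 7.37% fell in libraries with the label *flrt2*-KO. Markers of some other tissues also moved. The 7 blood markers found, of which 5 were tested, summed to between 1423 and 2243 FPKM in WT, against 460.5 to 1198 FPKM in the libraries labelled *flrt2*-KO, and 4 of the 5 were lower. The 9 surface epithelium markers summed to 2908 to 4026 against 1269 to 2593 FPKM, and 2 of 6 tested were lower. Of 7 tested yolk and liver markers 5 were lower, with sums of 74.5 to 103.4 against 29.4 to 59.8 FPKM. Of 4 retinal neuron markers, *isl1* and *atoh7* were lower, and the list summed to 253.6 to 369.1 against 158.5 to 226 FPKM. Retinal progenitor markers were present in both groups, with sums of 284.8 to 377 and 301.3 to 425.3 FPKM, and 0 of 7 tested passed (2 at an unadjusted p under 0.05, 1 with voom of limma on recovered reads). *hmx1* and *hmx4* of that list had no read. Of pigment epithelium markers 0 of 8 tested passed, and of markers of brain outside the eye 0 of 3. In each of these 2 lists 1 gene had an unadjusted p under 0.05, and 0 passed with voom. Of muscle and of periocular mesenchyme markers, 1 of 5 tested was lower in each list. The part of these markers in the crystallin results was not tested.

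Crystallin RNA was abundant in all 8 libraries. The 55 genes took 1.13% to 1.70% of the reads in WT and 0.966% to 1.33% in the libraries labelled *flrt2*-KO. Of the 55 genes, 36 passed the filter of at least 0.5 FPKM in at least 4 libraries. The 2 crystallins with the highest mean level were *crybb1*, rank 62 among all gene rows, and *crygn2*, rank 90. The filter left out 19 genes, of which 5 had no read in any library: *crygm1*, *crygm2c*, *crygm6*, *crygm7* and *crygs2*.

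**Figure D1:**
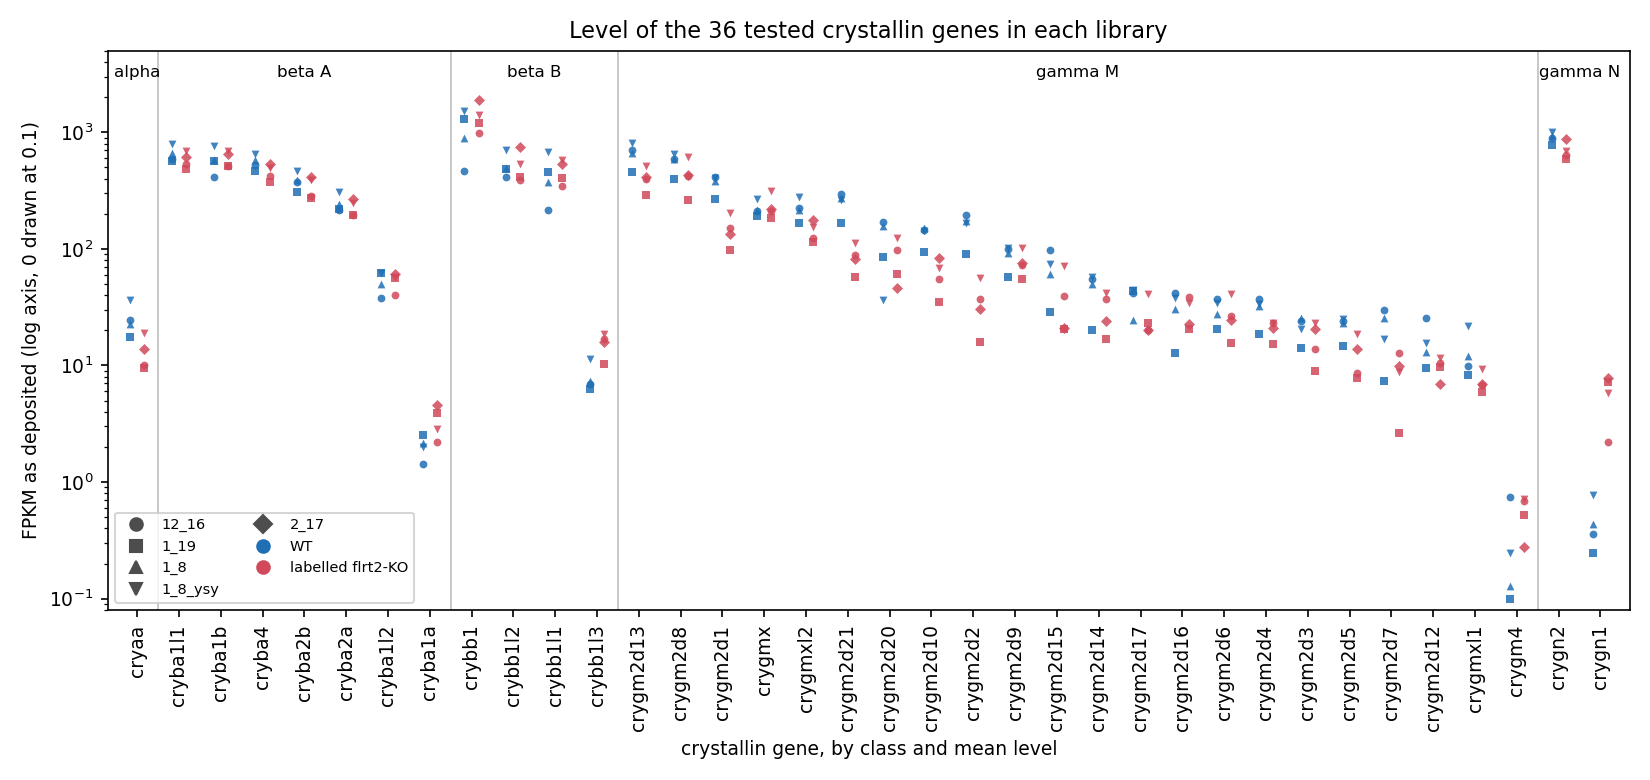
FPKM (log axis) of the 36 tested crystallin genes, 1 point per library, WT in blue and the libraries labelled flrt2-KO in red, with the marker shape giving the title suffix. The abundant beta crystallins overlap between groups, the gamma M genes crygm2d1, crygm2d21, crygm2d10 and crygm2d2 lie lower in every red point than in any blue one, and crygn1 lies higher.

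Of the 36 tested crystallins, 7 were lower and 2 were higher in the libraries labelled *flrt2*-KO, while 27 did not pass. Among all tested genes 7.37% were lower and 8.28% higher. The lower crystallins were *cryaa*, *crygm2d1*, *crygm2d2*, *crygm2d10*, *crygm2d13*, *crygm2d21* and *crygmxl2*, and the higher ones were *crygn1* and *crybb1l3*. Past the test and beyond 2-fold, 4 were lower and 1 was higher, where 3.35% and 3.59% of all tested genes were. The groups did not overlap for 4 lower genes and 1 higher gene, where this held for 9.76% and 11.4% of all tested genes. The median log2 fold change over the 36 genes was -0.35, beside -0.01 over all tested genes. It was -0.60 over the 18 tandem crygm2d genes and 0.01 over the other 18 tested crystallins. In pooled eyes, fewer lens cells and less RNA per lens cell cannot be told apart.

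**Figure D2:**
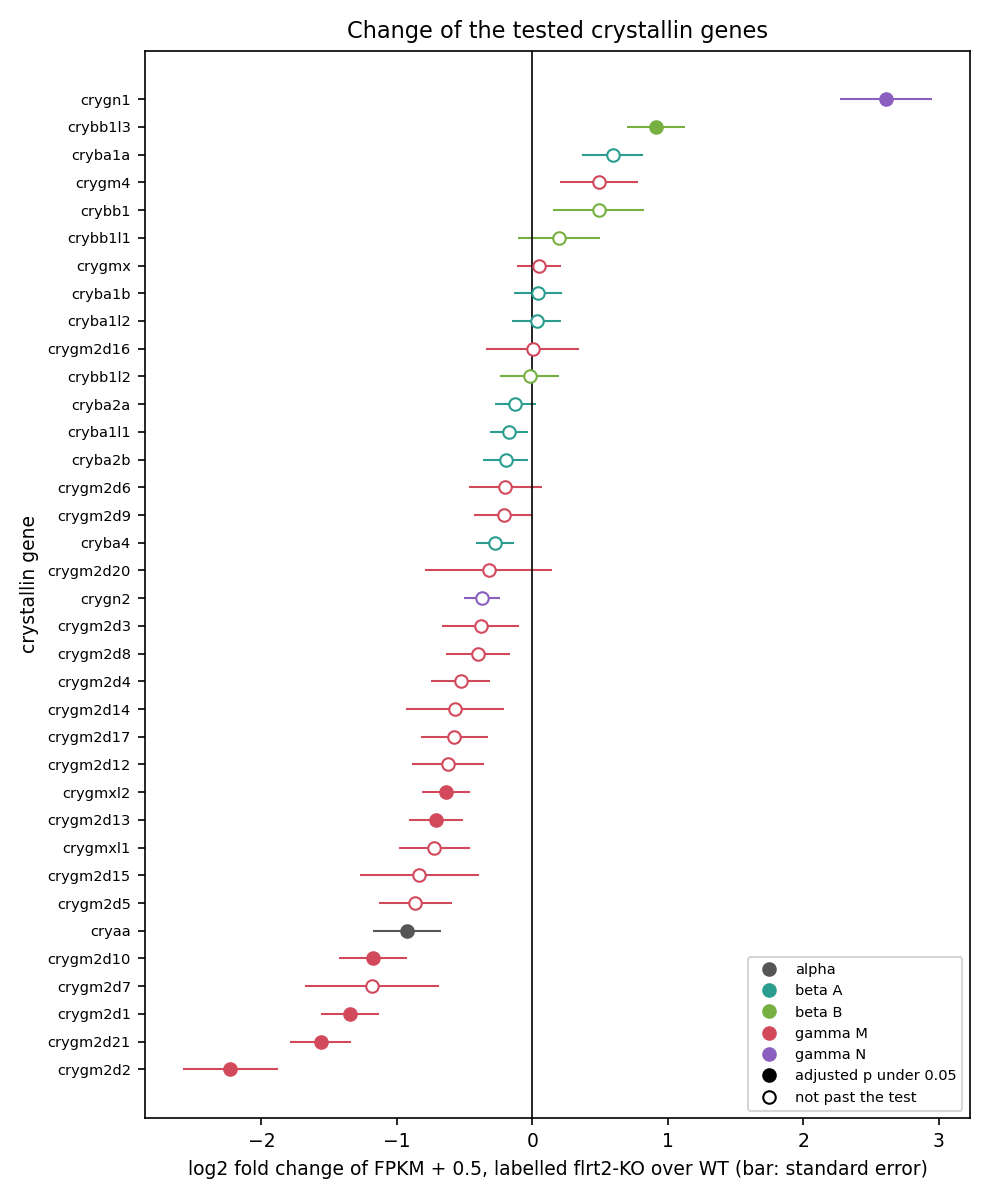
Log2 fold change (labelled flrt2-KO over WT, on log2(FPKM + 0.5)) with its standard error for the 36 tested crystallins, coloured by class, filled where the adjusted p was under 0.05. The 7 lower genes are cryaa and gamma M genes, the 2 higher genes are crygn1 and crybb1l3, and the beta A genes lie around 0.

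The count of lower crystallins changed when single libraries were left out. Without WT 12_16, WT 1_8 or WT 1_8_ysy, or without the library 12_16 or 1_19 labelled *flrt2*-KO, it was 4, and without WT 1_19 it was 12. The genes *crygm2d1*, *crygm2d2*, *crygm2d10* and *crygm2d21* were among the lower genes each time a library was left out. With the title suffix as a replicate block 10 crystallins were lower, and 11 with 1_8 and 1_8_ysy joined in that block. The share over all tested genes was not counted for these fits, so the counts do not set crystallins apart from other genes.

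The alpha class was represented by *cryaa* on chromosome 1, the chaperone alpha A crystallin. It had 24.6, 17.5, 22.8 and 36.6 FPKM in WT, in the order of suffixes 12_16, 1_19, 1_8 and 1_8_ysy. In the order 12_16, 1_19, 1_8_ysy and 2_17, it had 10.1, 9.51, 19.1 and 14 FPKM where the label was *flrt2*-KO. The groups overlapped, since 19.1 FPKM in 1_8_ysy lay above WT 1_19. The means were 25.4 ± 8.06 and 13.2 ± 4.39 FPKM (SD, n = 4 each), a log2 fold change of -0.92 with a standard error of 0.25 and an adjusted p of 0.0329 from limma. The call was lost (adjusted p = 0.122) when the reads of an alternate-contig row of *cryaa* were added, as described below. Without any one of WT 12_16, WT 1_8, WT 1_8_ysy and the libraries 12_16, 1_19 and 2_17 labelled *flrt2*-KO, the adjusted p from limma was between 0.0554 and 0.0888. The duplicated alpha B genes, *cryaba* and *cryabb*, had 1 and 3 reads over all 8 libraries.

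The other small heat shock protein genes gave no call. Of 10 listed genes 9 were found and 2 were tested, and 0 passed with limma, 0 at an unadjusted p under 0.05 and 0 with voom of limma on recovered reads. Since 8.28% of all tested genes were higher and 7.37% lower, 0 of 2 does not set these genes apart from others. *hspb1* had 6.9 ± 1.18 FPKM in WT and 7.21 ± 1.21 FPKM in the libraries labelled *flrt2*-KO (SD, n = 4).

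The beta A crystallins, acidic structural proteins, did not separate the groups. All 7 were tested and 0 passed the test, with 1 at an unadjusted p under 0.05 and 0 with voom. Among all tested genes 8.28% were higher and 7.37% lower, so 0 of 7 does not set the class apart from other genes. *cryba1l1* on chromosome 14 had 586.3, 564.9, 669.7 and 787.1 FPKM in WT and 532.6, 486.8, 684.5 and 611.7 FPKM in the libraries labelled *flrt2*-KO, in the order of suffixes given above. *cryba1b* on chromosome 21 had 415.9, 563.2, 581.5 and 758.4 FPKM in WT and 508.9, 509, 689.4 and 653.5 FPKM in the others. Both genes overlapped between groups, with log2 fold changes of -0.17 (standard error 0.14) and 0.04 (standard error 0.18). The class summed to 2474 ± 411.5 FPKM in WT and to 2248 ± 354.7 FPKM in the libraries labelled *flrt2*-KO (SD, n = 4). Over the 7 genes the log2 fold changes ran from -0.28 in *cryba4* to 0.59 in *cryba1a*, the lowest of the class in level.

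The beta B crystallins, the basic partners of beta A crystallins, included the most abundant crystallin. *crybb1* on chromosome 10 had 462.4, 1293, 888.2 and 1514 FPKM in WT and 976.7, 1190, 1416 and 1900 FPKM in the libraries labelled *flrt2*-KO. *crybb1l2* on chromosome 1 had 410.6, 482.2, 493.6 and 697.5 FPKM in WT and 387.6, 416.7, 537.9 and 745.2 FPKM in the others. The library 12_16 was the lowest of its group for both genes in both groups, and the groups overlapped. Their log2 fold changes were 0.49 (standard error 0.34) and -0.02 (standard error 0.22), and neither passed the test.

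*crybb1l3*, a beta B1-like gene on chromosome 15 (GRCz11, 28096152 to 28104403), was the beta crystallin that rose. It had 6.87, 6.28, 7.38 and 11.4 FPKM in WT and 16.7, 10.3, 18.6 and 16 FPKM in the libraries labelled *flrt2*-KO. The groups overlapped only through WT 1_8_ysy, which lay above the library 1_19 labelled *flrt2*-KO. The log2 fold change was 0.91 with a standard error of 0.21 and an adjusted p of 0.0166 from limma. The gene lies inside *cryba1a* on the opposite strand. Whether reads were counted by strand is not stated, and overlap of exons was not checked. How far reads of the pair can be told apart is thus not known. *cryba1a* had 2.02 ± 0.454 FPKM in WT and 3.37 ± 1.05 FPKM in the others (SD, n = 4), with an adjusted p of 0.106 from limma, or 0.049 without the library 12_16 labelled *flrt2*-KO. Of the remaining beta B genes, *crybb3* had 24 reads in WT and 28 in the others, and *crybb2* had 5 and 8. *crybgx* had 5 reads and 1 read.

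Beta A and beta B genes lay beside each other at 4 places of the genome. *cryba4* and *crybb1* lay on chromosome 10, *cryba1l1* and *crybb1l1* on chromosome 14, *cryba1l2* and *crybb1l2* on chromosome 1, and *cryba1a* and *crybb1l3* on chromosome 15. The 2 genes of a place could differ widely in level, as *crybb1l2* and *cryba1l2* did with 521 ± 123.3 and 53 ± 11.5 FPKM in WT.

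The gamma N crystallins, which combine features of beta and gamma crystallins, held the largest rise among the tested members. *crygn1* on chromosome 2 (GRCz11, 51783120 to 51815413) had 0.36, 0.248, 0.438 and 0.78 FPKM in WT. It had 2.19, 7.25, 5.78 and 7.76 FPKM in the libraries labelled *flrt2*-KO. Of the WT libraries only 1_8_ysy reached the 0.5 FPKM of the filter, so the gene was tested because of its level in the others. Without a filter its adjusted p was 0.00211 from limma. The groups were apart, and 12_16 was the lowest of the 4 raised libraries. The recovered reads were 30 over the WT libraries and 346 over the others. The log2 fold change was 2.61 with a standard error of 0.34 and an adjusted p of 0.000684 from limma, and it ran from 2.44 to 2.98 when 1 library was left out. The level stayed far below that of its paralog *crygn2* on chromosome 24, one of the most abundant crystallins. *crygn2* had 893.3, 776.1, 922.1 and 1001.25 FPKM in WT and 634.5, 591.9, 695.6 and 868.9 FPKM in the libraries labelled *flrt2*-KO. Its groups overlapped through the library 2_17, and its log2 fold change of -0.37 did not pass (standard error 0.13, adjusted p = 0.086 from limma). With the replicate block it was -0.47 with an adjusted p of 0.0191 from limma, and without 2_17 the adjusted p was 0.015. Since 2_17 has no partner of its suffix, the block fit leaves it out of the fold change. The block fit and the fit without 2_17 are thus not separate checks. *crygn2* was also among the lower genes in fits that keep every library. These were the fit with each library scaled to an equal FPKM sum and voom of limma on recovered reads.

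The gamma S class, known from mammals as a crystallin of the lens cortex, was barely detected. No gamma S gene passed the filter. *crygs1* had 0, 0.989, 1.5 and 2.45 FPKM in WT, and in the libraries labelled *flrt2*-KO it had 0.0662 FPKM in 12_16 and 0 in the other 3. These were 81 reads in WT against 1 read, and WT 12_16 also had none. Without a filter its adjusted p was 0.0781 from limma. *crygs3* had 3 reads in WT and *crygs4* 1 read in the others.

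The gamma M class carried most of the lower crystallins. Of its 32 genes 22 were tested, 6 were lower and 0 were higher, and 12 had an unadjusted p under 0.05. With voom 7 passed. Over all tested genes 7.37% were lower and 8.28% higher, and no such share was counted for the unadjusted p or for voom. The class summed to 3486, 2171, 3237 and 3503 FPKM in WT and to 1899, 1320, 2584 and 1876 FPKM in the libraries labelled *flrt2*-KO. WT 1_19 lay below the library 1_8_ysy labelled *flrt2*-KO, so the sums overlapped. Within each suffix that both groups share, the WT sum was the larger one.

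Outside the tandem array, 2 gamma M genes lie side by side on chromosome 12. *crygmxl2* had 225.1, 166, 213.2 and 279.1 FPKM in WT and 123.3, 113.7, 153.5 and 175.9 FPKM in the libraries labelled *flrt2*-KO. Its groups overlapped through 2_17, and the log2 fold change was -0.64 with a standard error of 0.18 and an adjusted p of 0.0353 from limma. Without any one of WT 12_16, WT 1_8, WT 1_8_ysy and the libraries 12_16, 1_19 and 1_8_ysy labelled *flrt2*-KO, the adjusted p from limma was between 0.0541 and 0.0985. Its neighbour *crygmx* had 220.9 ± 32.2 FPKM in WT and 231.5 ± 55.8 FPKM in the others (SD, n = 4), a log2 fold change of 0.05 with a standard error of 0.16. The difference between the 2 genes was not tested.

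Several gamma M genes were hardly read. *crygm2b* had 7 reads in the libraries labelled *flrt2*-KO, in 3 of them, and 0 in WT. *crygm2a* had 2 reads and *crygm3* 3 reads, all in WT, and *crygm2f* had 1 read in the others. *crygm5* had 17 reads in WT and 6 in the others, and *crygm2e* had 3 and 1.

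The tandem array on chromosome 9 holds 18 of the members, *crygm2d1* to *crygm2d21* with gaps in the numbers, between 22091161 and 22339582 (GRCz11), all on the minus strand over 248 kb. All 18 were tested. Of these, 5 were lower and 13 did not pass, and 17 had a negative log2 fold change. Over all tested genes 7.37% were lower and the median log2 fold change was -0.01, while the share of negative signs was not counted. The copies are close relatives, so reads can be shared or lost between them and the level of a single copy is uncertain. *crygm2d14* and *crygm2d16* also overlap each other on the same strand.

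The most abundant copy was *crygm2d13*, the first of the array. It had 709.5, 457.8, 660 and 812.9 FPKM in WT and 400.9, 289.5, 509.1 and 409.1 FPKM in the libraries labelled *flrt2*-KO. The groups overlapped through WT 1_19 and the library 1_8_ysy labelled *flrt2*-KO, with -0.71 ± 0.20 (standard error) as log2 fold change and 0.0377 as adjusted p from limma. Without any one of the same 6 libraries as for *cryaa*, the adjusted p from limma was between 0.0644 and 0.1002. The second in level, *crygm2d8*, had 592.3, 397.4, 588.4 and 645.4 FPKM in WT and 421.5, 264, 617 and 427.1 FPKM in the others. Its log2 fold change of -0.40 did not pass.

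The last 4 genes of the array by position were also the 4 that passed the test and were lower by more than 2-fold. *crygm2d21* (22298246 to 22299412) had 298, 167.3, 275.2 and 261 FPKM in WT and 89.2, 56.9, 112.9 and 81.1 FPKM in the libraries labelled *flrt2*-KO. *crygm2d10* (22309838 to 22310919) had 146.3, 93.4, 150.6 and 142.4 FPKM in WT and 54.9, 34.9, 68.5 and 83.4 FPKM in the others. Neither gene had an overlap between groups. *crygm2d2* (22317479 to 22318511) had 196.3, 90.9, 173.4 and 165.8 FPKM in WT and 37.2, 15.9, 56.3 and 30.2 FPKM in the libraries labelled *flrt2*-KO. *crygm2d1* (22338578 to 22339582) had 412.2, 266.5, 385.3 and 408.9 FPKM in WT and 152.2, 98.6, 204.9 and 134.5 FPKM in the others. The groups of these 2 genes did not overlap either. The log2 fold changes in this order were -1.56, -1.18, -2.23 and -1.34, with standard errors of 0.22, 0.25, 0.35 and 0.22 and adjusted p of 0.00126, 0.0105, 0.00211 and 0.00231 from limma. In the 14 genes before them the log2 fold change ran from -1.18 to 0.00 with a median of -0.55, and 1 of them passed. *crygm2d7*, which lies before them, was also beyond 2-fold at -1.18, with a standard error of 0.49, but did not pass (adjusted p = 0.141 from limma). With the replicate block it passed, with an adjusted p of 0.00896 from limma. The place in the array was noticed after the values were seen, and no test was made of it.

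**Figure D3:**
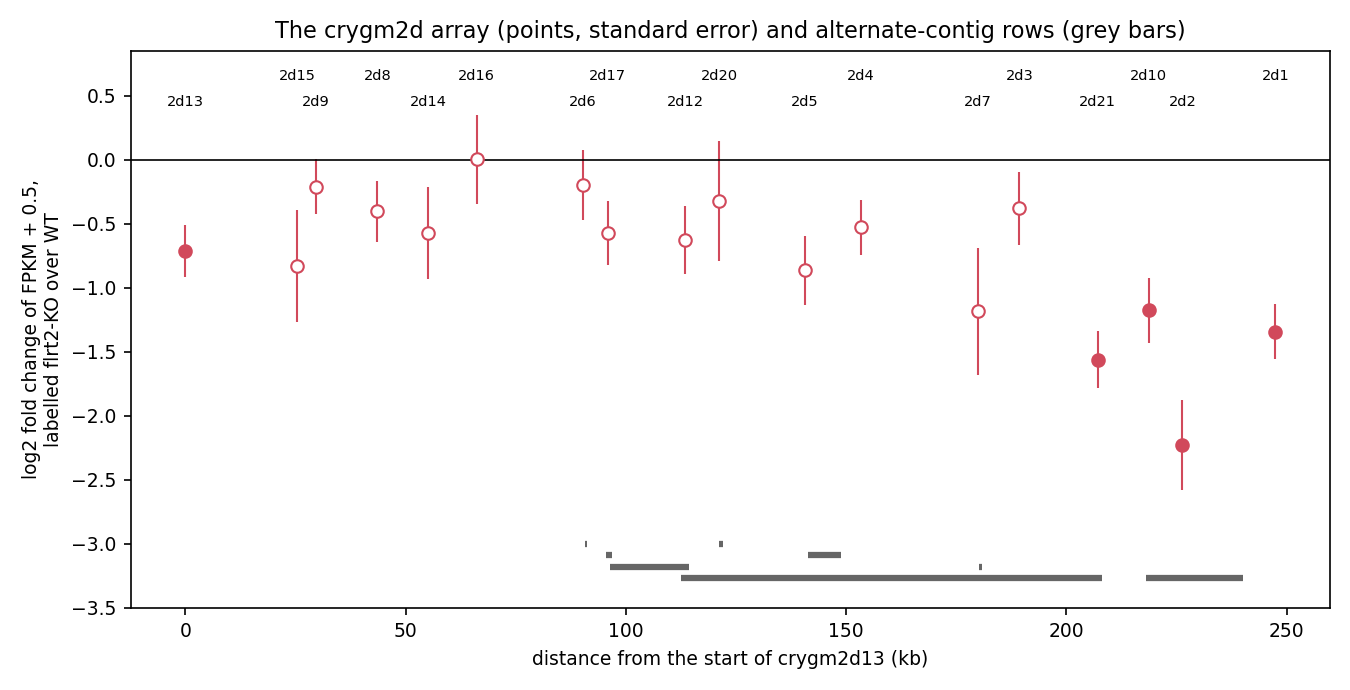
Log2 fold change (labelled flrt2-KO over WT, on log2(FPKM + 0.5)) with its standard error for the 18 crygm2d genes by distance in kb from the start of crygm2d13, filled where the adjusted p was under 0.05, with the spans of the 8 alternate-contig rows as grey bars below. The last 4 genes have log2 fold changes between -2.23 and -1.18.

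GRCz11 holds alternate contigs beside the chromosomes, which give a second version of some regions. The table has 8 unannotated rows on an alternate contig of chromosome 9 whose protein match is gamma crystallin M2, of which 6 had reads. Their positions, in the chromosome's numbering, run from 22181957 to 22331246, which covers 10 of the 18 members. In RPM, recovered reads scaled to 1000000 reads of the library size behind the FPKM, they held 171, 107.9, 224.8 and 323.4 in WT and 323.6, 239.6, 401.9 and 295.1 in the libraries labelled *flrt2*-KO. The groups overlapped, with means of 206.8 ± 91.3 and 315.1 ± 67.6 RPM (SD, n = 4). The row that spans 22203714 to 22299320, and with it 7 members, had 49.7 ± 26.1 RPM in WT and 103.2 ± 16.1 in the others. The row from 22309137 to 22331246, which covers *crygm2d10* and *crygm2d2*, had 148.7 ± 63.5 and 204.8 ± 53.4.

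The last 4 genes had 967.9, 566.1, 905.8 and 895.2 RPM in WT and 305.1, 188.8, 403.3 and 303.8 in the libraries labelled *flrt2*-KO. Since these genes were picked for their change, a difference in their sum or share was fixed by the choice and is given as a description. As a share of all 20 crygm2d rows of the array, they took 34.4%, 34.6%, 35.2% and 33.7% of the reads in WT and 21.1%, 20.2%, 20.7% and 23.3% in the others. The share varied little within a group, while the array as a whole varied between 1638 and 2814 RPM in WT and between 934.9 and 1950 in the others. The share of reads on the alternate-contig rows went the other way. It was 5.73%, 6.18%, 8.04% and 10.9% of the array with these rows in WT, and 18.3%, 20.4%, 17.1% and 18.4% in the libraries labelled *flrt2*-KO. With the alternate-contig rows added to both sides, the last 4 genes and these rows took 39.5% ± 1.36 in WT and 35.9% ± 1.36 in the others (SD, n = 4). The groups did not overlap in this share, with 38.15% as the lowest WT value and 37.4% as the highest of the others. The rows also span members before the last 4, so this share can hold reads of those members. The part of the alternate version in the lower values of these 4 genes was not tested beyond these sums.

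**Figure D4:**
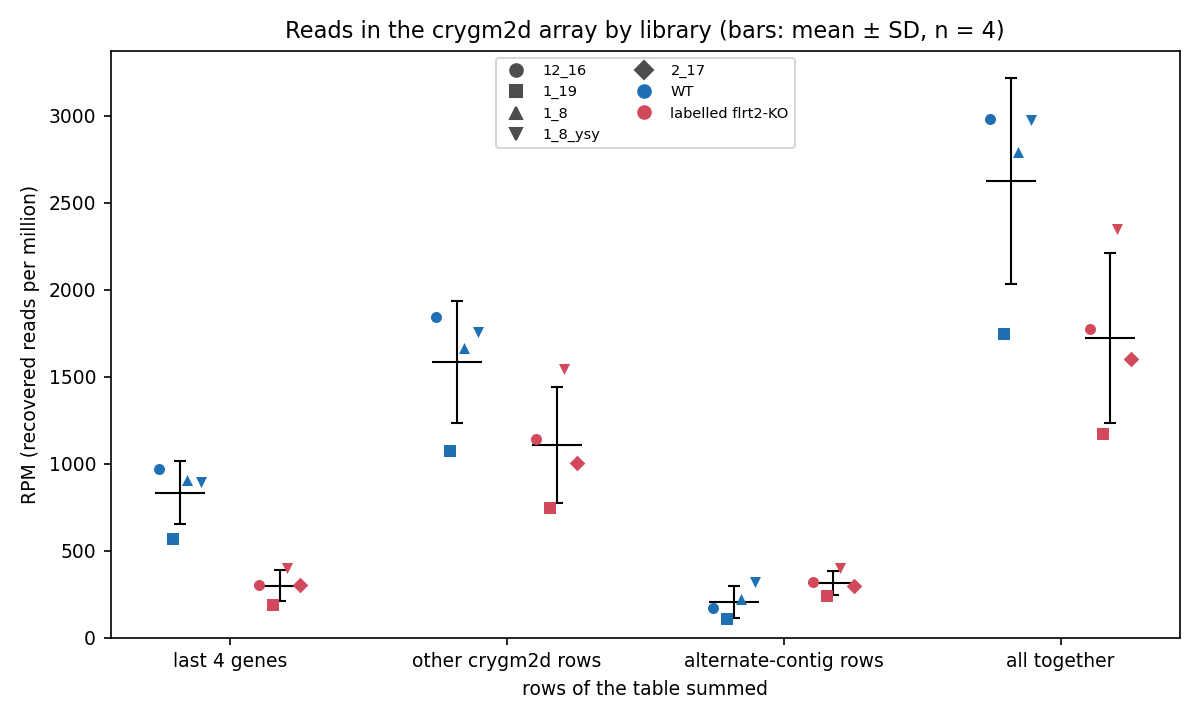
RPM (recovered reads scaled to library size) in 4 sums of rows of the crygm2d array, 1 point per library with mean ± SD (n = 4), WT in blue and the libraries labelled flrt2-KO in red. The last 4 genes, which were picked for their change, ran from 566.1 to 967.9 in WT and from 188.8 to 403.3 in the others.

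With the alternate-contig rows included, the array held 2626 ± 593.1 RPM in WT and 1725 ± 487.8 in the libraries labelled *flrt2*-KO (SD, n = 4), a ratio of 0.657. Without them the ratio was 0.583. The reads of each row were also added to 1 gene, the nearest with the same protein match. Where a row overlapped several such genes, the first in row order was taken, so position did not decide among them. In this fit 4 crystallins were lower: *crygm2d1*, *crygm2d2*, *crygm2d13* and *crygmxl2*. None of these 4 genes was given reads of a row, so their fold changes could not move. The row that covers *crygm2d10* and *crygm2d2* was added to *crygm2d10* alone. On the log2 scale *crygm2d21* was then at -0.69, with 0.0606 as adjusted p from limma, and *crygm2d10* at -0.06, with 0.907. *crygm2d1*, which lies beyond the last alternate-contig row, was given no reads and so stayed at -1.34, with an adjusted p of 0.00343 from limma. Each row had 20 to 26 candidate genes with the same protein match. Whether *crygm2d1* lost reads to these rows was not tested. Since a row that spans 7 copies was added to a single one, the sums above describe the array better than these single values. *cryaa* also has such a row, with 8.98 ± 3.87 RPM in WT and 8.3 ± 3.42 in the others, and the sum of both rows had a ratio of 0.60, against 0.519 for *cryaa* alone.

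The libraries ranked differently by class, more so in WT. WT 1_19 was the lowest WT library for 16 of the 18 crygm2d genes, and the library 1_19 labelled *flrt2*-KO was the lowest of its group for 15. The median deviation of these genes from the group mean was -0.54 in WT 1_19 and -0.53 in the other 1_19 on the log2 scale, beside 0.01 and 0.00 over all tested genes. For the 11 tested beta crystallins the library 12_16 was the lowest in 7 genes in WT and in 6 genes in the libraries labelled *flrt2*-KO, with median deviations of -0.32 and -0.22. The library 1_19 was the lowest in the remaining genes, 4 in WT and 5 in the others, with median deviations of -0.08 and -0.21. The library 1_19 labelled *flrt2*-KO was thus low in both classes. WT 12_16, lowest in 7 of the 11 beta crystallins, was the highest WT library for 10 of the 18 crygm2d genes. What the suffixes stand for is not stated in the sources used here.

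**Figure D5:**
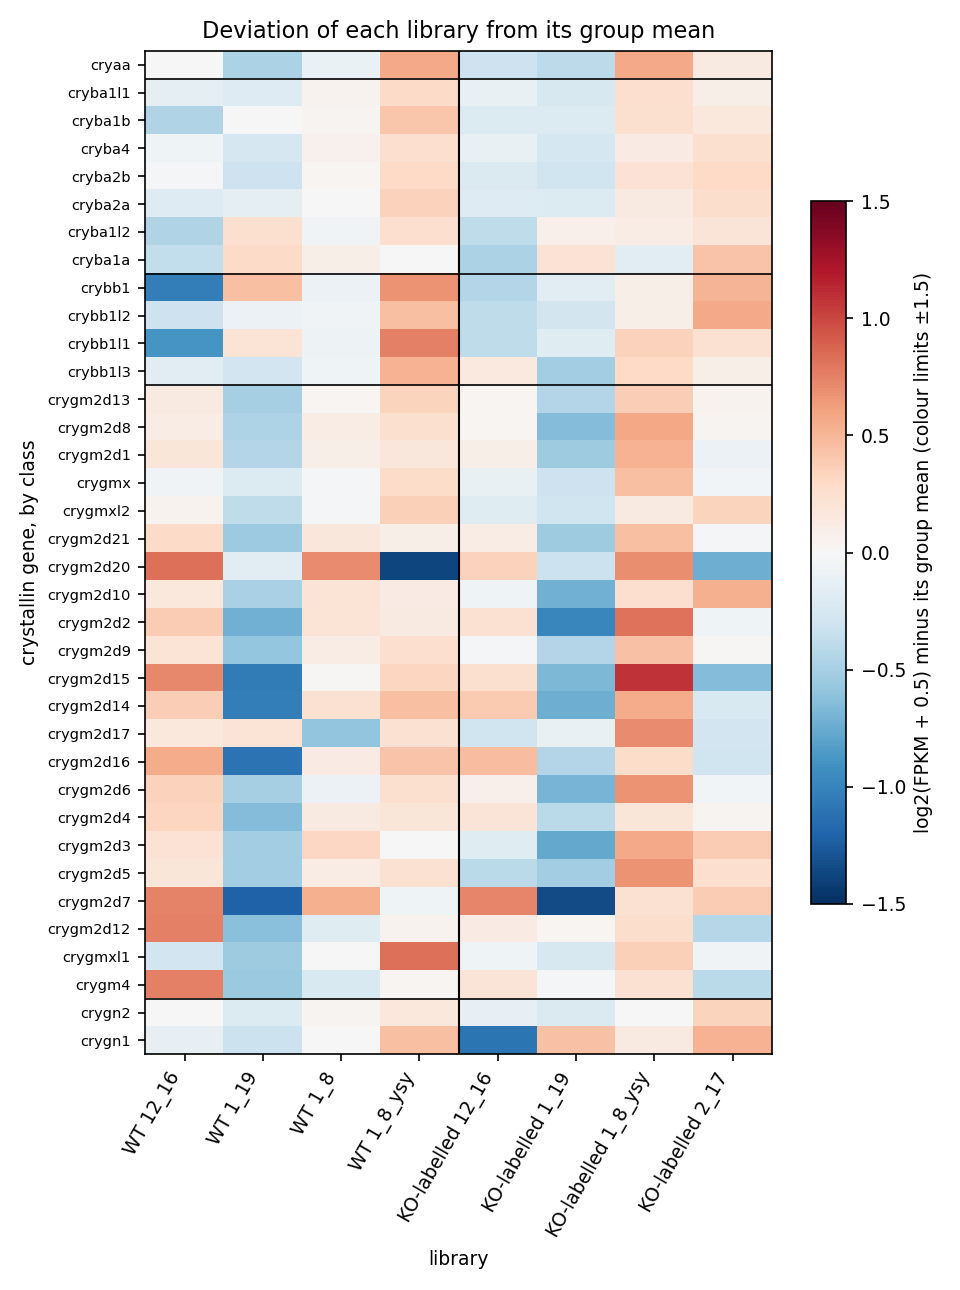
Deviation of each library from its group mean on log2(FPKM + 0.5), 1 row per tested crystallin by class and 1 column per library, red above and blue below the mean. The 1_19 columns are blue over most crygm2d rows in both groups, and the 12_16 columns are blue over crybb1, crybb1l1 and crybb1l2.

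Lens genes other than crystallins had calls in both directions, but those of *lim2.1*, *mipa*, *six3a* and *cdh2* were lost when alternate-contig reads were added. Of 46 listed genes 42 were found and 37 tested, of which 3 were higher and 3 were lower, with a median log2 fold change of 0.13. Among all tested genes 8.28% were higher and 7.37% lower, which is close to these shares. With the title suffix as a replicate block *bfsp2*, the gene of a lens fibre intermediate filament protein, was also lower (-0.57, adjusted p = 0.0277 from limma, against -0.47 and 0.239 without the block), and with 1_8 and 1_8_ysy joined it did not pass. *lim2.1*, which encodes a lens fibre membrane protein, rose from 1.16 ± 0.446 to 41.7 ± 17.6 FPKM, and *mipa*, the lens water channel, fell from 73.4 ± 22.3 to 23.9 ± 9.05 FPKM (SD, n = 4). Their alternate-contig rows had the reverse pattern. The row of *lim2.1* had 84.8 ± 14.1 FPKM in WT and 43.6 ± 8.49 FPKM in the others, and that of *mipa* had 48.4 ± 18 and 117.3 ± 20.4 FPKM. With these reads added, the log2 fold changes went from 4.61 to -0.06 and from -1.63 to 0.29, and neither passed. *six3a* (0.95) and *cdh2* (-0.59), an eye homeobox gene and the gene of N-cadherin, became -0.13 and -0.01 in the same way. *celf1*, an RNA-binding protein required in the zebrafish lens, rose by 0.63 on the log2 scale, and *six7*, an eye homeobox gene, fell by 2.43. Neither gene was given alternate-contig reads, so both fold changes were the same with such reads added to other genes. In that setting *lctla* went from 0.40 to -0.75 without passing in either, and *sox1a*, which was too low to be tested before, was lower by limma (-0.80, adjusted p = 0.00772).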

How the data were processed

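Total RNA from pooled eyes was sequenced, and per the labels the reads were aligned with HISAT2 2.0.5 to GRCz11 and counted per gene with featureCounts 1.5.0-p3. The labels name a TruSeq kit and the methods NEBNext Ultra. The authors deposited FPKM values in 1 table, with no scaling described beyond gene length and depth. Reads were recovered from FPKM and gene length, and 100% of the values came out whole (tolerance 1e-06).

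A gene entered the test at 0.5 FPKM or more in 4 or more libraries and was tested on log2(FPKM + 0.5) with limma 3.58.1 (R 4.3.3; intensity trend, robust prior), and p was adjusted by Benjamini-Hochberg over all 21012 genes. Fold changes on this scale understate changes of low genes. Members and lists were chosen with earlier results of these data known. Values are given by library for crystallins past the test and for the 2 most abundant tested crystallins of each class. Crystallins read in 1 group only are given by their reads, and other lens genes by mean or fold change. The steps were tested on simulated data. Tables were made in Python 3.11.15 with pandas 2.3.3.

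No library repeated another of its group: their counts differed with a chi-square of 9.79 to 25.1 per degree of freedom. Deviations from group means correlated across genes at r = 0.141, 0.122 and 0.106 in the 3 pairs with a shared title suffix. Pairs of unlike suffix ran from -0.223 to 0.112, and 2 of them, at 0.107 and 0.112, were as high as the lowest shared one. Because each shared pair was over 0.1, the suffix was used as a replicate block, but only in alternative fits, and 2 libraries have no partner. The main test had no block, so its p-values do not account for pairing. All 55 gene IDs matched the reference symbols, where *crygm2d9* and *crygm2d17* are now *crygm2d18* and *crygm2d19*. The dropped row named *crygm2d8* is *crygm2d17* there. The gene named CR391987.1, not a member here, is *crygm2d11*, so the members are not all copies of the array. No genome or sequence table was used, so no sequence is shown.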

Additional observations from a re-analysis of the deposited data

Results flagged for a closer look

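In 72 groups of 4 values (36 tested crystallins in 2 groups), 3 held a library far from the other 3, where chance alone marks about 1 group in 20. *crygm2d10* was at 93.4 FPKM in WT 1_19, below the other WT libraries. *crygm2d17* was at 24.7 FPKM in WT 1_8, below the others, and at 41 FPKM in the library 1_8_ysy labelled *flrt2*-KO, above the others.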

How the results depend on the processing

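The count of lower crystallins was 7 as reported, 4 without a filter on low values, where 50 members were tested, 4 with alternate-contig reads added, 11 with a replicate block that joins 1_8 and 1_8_ysy, and between 4 and 12 when 1 library was left out. The count of higher crystallins was 2 or 3 throughout. The share over all tested genes was counted only for the fit as reported. Of lens genes other than crystallins, 1 was higher with alternate-contig reads added, where *lim2.1*, *mipa* and *six3a* changed sign to -0.061, 0.29 and -0.13, *lctla*, not past the test in either, went from 0.40 to -0.75, and *sox1a* was newly tested and lower. The log2 fold change of *cryba1b* changed sign to -0.025 with equal column sums and also to -0.025 with voom. When 1 library was left out it ran from -0.10 to 0.18, and that of *crybb1l2* from -0.21 to 0.13. Class sums moved by less than the spread between replicates under each scaling. Median-ratio scaling hardly changed the fits of the other lens genes, with *mipa* at -1.632 before and -1.631 after. It thus adds little as a check. Single copies of the crygm2d array cannot be separated from reads shared among them, and 4 libraries per group limit the precision.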
